A study of Mus musculus with 36 samples.

Results

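RNA from 6 Dicer conditional knockout (cKO) mice was compared between 8 and 4 weeks after tamoxifen, on the 3 arrays labelled hippocampus at each time, chosen by their sample titles out of 36 arrays in the series. The mice were Cre+;Dicer lox/lox animals on a C57BL/6J background that carried Camk2a-CreERT2, a tamoxifen-activated Cre recombinase under the Camk2a promoter. They received tamoxifen at 8 weeks of age, 10 mg in all over consecutive days, and the control mice, of the same genotype, received the oil vehicle on the same schedule and were also sampled at 8 and 4 weeks (3 arrays each). The 8-week mice were therefore older than the 4-week mice, and the vehicle groups show the same step in age without induced deletion. Each of these 12 arrays came from a separate animal. The floxed exon of Dicer1 codes for most of an RNase III domain. Recombination was limited to cells that express Camk2a, so cells without deletion, such as glia, remained in every sample. Values are log2 intensities of Affymetrix mouse expression arrays after RMA (robust multi-array average), and a difference of 1 on this scale is a doubling.

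DICER cuts hairpin precursors into mature miRNAs, which guide Argonaute proteins to mRNAs and lower their stability or translation. Pairing rests mainly on the seed, the bases near the 5′ end of the miRNA, and a cell that loses DICER loses its miRNAs as they decay. Camk2a encodes a kinase subunit that is abundant at synapses of forebrain excitatory neurons, and the pyramidal and granule neurons of the hippocampus are among the cells in which its promoter is most active. The comparison asked what differed at 8 weeks, when the mice were losing weight again, relative to 4 weeks, when they were obese and had not yet peaked in weight.

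The mature forms of 4 miRNAs whose reported targets were followed on the arrays are shown here because their loss is what the deletion acts through. The sequences are from RefSeq (GRCm38.p6), 5′ to 3′, with bases 2 to 8, the seed, in capitals. The miRNAs themselves were not measured by these arrays.
mmu-let-7a-5p: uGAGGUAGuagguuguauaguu
mmu-miR-9-5p: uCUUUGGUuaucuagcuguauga
mmu-miR-132-3p: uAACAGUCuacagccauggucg
mmu-miR-29a-3p: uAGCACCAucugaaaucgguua
No seed was shared between these 4 miRNAs. The genes of let-7a-5p (chromosome 13), miR-132-3p (chromosome 11) and miR-29a-3p (chromosome 6) were taken at the loci Mirlet7a-1, Mir132 and Mir29a, and miR-9-5p is encoded at Mir9-1, Mir9-2 and Mir9-3 on chromosomes 3, 13 and 7.

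The labelled tissue was checked against 13 markers of the hippocampus, and these separated replicate 1 of the cKO mice at 8 weeks from the other 11 arrays. It had the highest value of the 12 arrays for 12 of the 13 markers, all but Tdo2. Neurod6, a transcription factor of pyramidal neurons, was at 9.05 in that array, against 2.68 to 3.31 in the other 11. Slc17a7, the vesicular glutamate transporter of forebrain excitatory neurons, was at 7.56 in that array, against 3.74 to 4.41 in the other 11. Spink8, a marker of CA1, was at 8.36 in it and at 3.31 to 3.82 elsewhere, and Dsp, a marker of dentate granule cells, was at 8.11 in it and at 3.24 to 3.69 elsewhere. In the other 11 arrays 5 of the 13 markers (these 4 and Tdo2) lay under the expression filter of 4.6 throughout. Other markers of the list were well expressed there: Camk2a was at 11.81 on its brightest probe set in replicate 1 at 8 weeks and at 9.78 to 10.51 in the other 11, and Wfs1 was at 9.58 in replicate 1 and at 8.65 to 9.16 in the other 11. Cpne4 was at 9.78 in replicate 1 and at 8.71 to 9.22 in the other 11, and Bok was at 9.75 in replicate 1 and at 8.49 to 8.72 in the other 11. Levels cannot be set across tissues because RMA was run for each tissue, so ranks within an array were used. The median percentile of the 13 markers was 81.1 in replicate 1 at 8 weeks and 51.6 to 60.7 in the other 11 arrays, against 63.4 to 71.9 in the 12 cortex arrays and 51.5 to 62.5 in the 12 hypothalamus arrays. Camk2a, Wfs1, Cpne4 and Bok ranked high in other tissues too. Their median percentiles were 95.7, 88.4, 86.6 and 84.6 in the 12 arrays labelled hippocampus. In cortex they were 99.6, 91.1, 89.4 and 90.1, and in hypothalamus 96.0, 90.8, 78.5 and 80.8. Prox1 was at 6.25 in replicate 1 at 8 weeks and at 4.02 to 4.78 in the other 11 arrays, around the filter.

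A list of 17 transcription factors and other genes of the dorsal midbrain, put together after the values had been seen, had a higher median rank in all 12 arrays labelled hippocampus than in the other tissues. Among its members were Pax7, Otx2, Gata3 and Tfap2b, and Slc17a6, the vesicular glutamate transporter that many neurons below the forebrain use. The median percentile of the 17 genes was 74.7 in replicate 1 of cKO mice at 8 weeks and 76.4 to 79.5 in the other 11 arrays. It was 28.9 to 39.7 in cortex and 28.9 to 40.5 in hypothalamus. Not every member differed in this way. The median percentile of Slc17a6 was 98.0 in the 12 arrays labelled hippocampus and 97.4 in hypothalamus. That of Gata2 was 78.6, against 76.1 in cortex and 73.7 in hypothalamus. Replicate 1 at 8 weeks was the lowest of the 12 arrays for 12 of these 17 genes. En1 was an exception to the high ranks, at a percentile of 2.2 in replicate 1 and of 4.4 to 39.7 in the other 11 arrays. Tcf7l2, a Wnt pathway transcription factor, was on its brightest probe set at 8.56 in it and at 8.82 to 10.61 in the other 11. The samples are therefore called the arrays labelled hippocampus below, and no other tissue name is given to them.

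**Figure D1:**
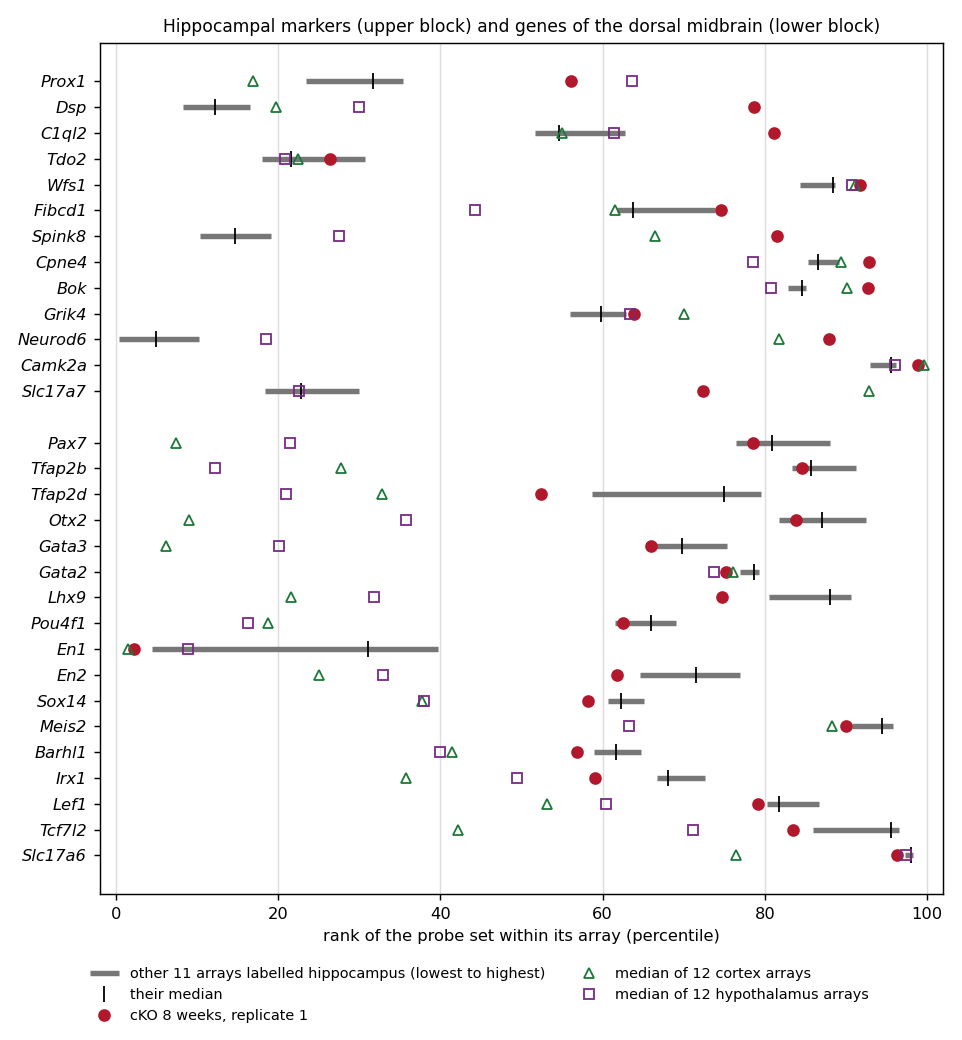
Percentile rank of each probe set within its array (x axis) for 13 hippocampal markers and 17 genes of the dorsal midbrain (rows), in replicate 1 of cKO mice at 8 weeks (filled circles) and in the other 11 arrays labelled hippocampus (bars from lowest to highest, ticks at the median), with medians of 12 cortex arrays (triangles) and 12 hypothalamus arrays (squares). For the markers, the median percentile was 81.1 in replicate 1 and 51.6 to 60.7 in the other 11 arrays.

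Within the compared groups, further arrays stood apart. Counting genes more than 1 above the median of the other 11 arrays, replicate 1 at 8 weeks had 184 of 14200, and the remaining 11 arrays had 0 to 40. Counting genes more than 1 below it, replicate 3 of cKO mice at 4 weeks had 226, and the remaining 11 had 0 to 28. Replicate 3 at 4 weeks also had the lowest median deviation of 29 nuclear-retained and intron-rich transcripts. In controls these deviations were 0.0354, −0.1 and −0.186 at 8 weeks and 0.0666, 0.0628 and 0.0991 at 4 weeks. The median control change of the list was −0.18, and 11 of its 29 genes were wholly lower at 8 weeks, beside 8.11% of all genes. In cKO mice the deviations were 0.0541, 0.109 and 0.129 at 8 weeks and 0.149, −0.0201 and −0.442 at 4 weeks (two-sided exact permutation p = 0.4, where 3 against 3 arrays cannot go below 0.1). The 3′ minus 5′ signal of actin, which rises as RNA degrades, was 0.806 to 1.08 at 8 weeks and 0.806 to 0.989 at 4 weeks (exact permutation p = 1.0).

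Some genes of cells that lie outside the hippocampus were high in replicate 2, or in replicates 2 and 3, of the 4-week cKO mice. Tph2, the enzyme that starts serotonin synthesis in the brain, was at 3.60, 2.98 and 3.62 at 8 weeks and at 3.07, 5.89 and 7.31 at 4 weeks. Slc6a4, the serotonin transporter, was at 4.76, 4.94 and 5.41 at 8 weeks and at 4.82, 6.53 and 7.66 at 4 weeks. In both genes the 2 high arrays were replicates 2 and 3 at 4 weeks, while replicate 1 lay among the 8-week arrays. Other genes listed for serotonergic neurons of the raphe did not all follow. Maob was at 9.05, 9.48 and 9.39 at 8 weeks and at 9.20, 9.27 and 9.27 at 4 weeks. Over 9 raphe genes tested the median deviation was −0.24, 0.105 and 0.157 at 8 weeks and −0.0408, 0.0525 and 0.0541 at 4 weeks. Over 12 raphe genes measured the median percentile was 48.9, 52.5 and 56.1 at 8 weeks and 50.9, 65.2 and 69.6 at 4 weeks. Pcp2, a gene of cerebellar Purkinje cells, was at 5.83, 6.25 and 6.18 at 8 weeks and at 5.99, 8.50 and 6.05 at 4 weeks. Gabra6, a GABA receptor subunit of cerebellar granule cells, was likewise high in replicate 2 alone, at 7.14. How much these differences in sampled tissue contribute to any comparison below was not tested, and changes are given without replicate 1 at 8 weeks and replicate 3 at 4 weeks where they move with these arrays. That omission leaves fewer arrays in each group and keeps replicate 2 at 4 weeks, so the remaining arrays still differ in sampled tissue. Over 12 genes of the cerebellum list the median change was −0.24 with all arrays and −0.30 without those arrays.

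**Figure D2:**
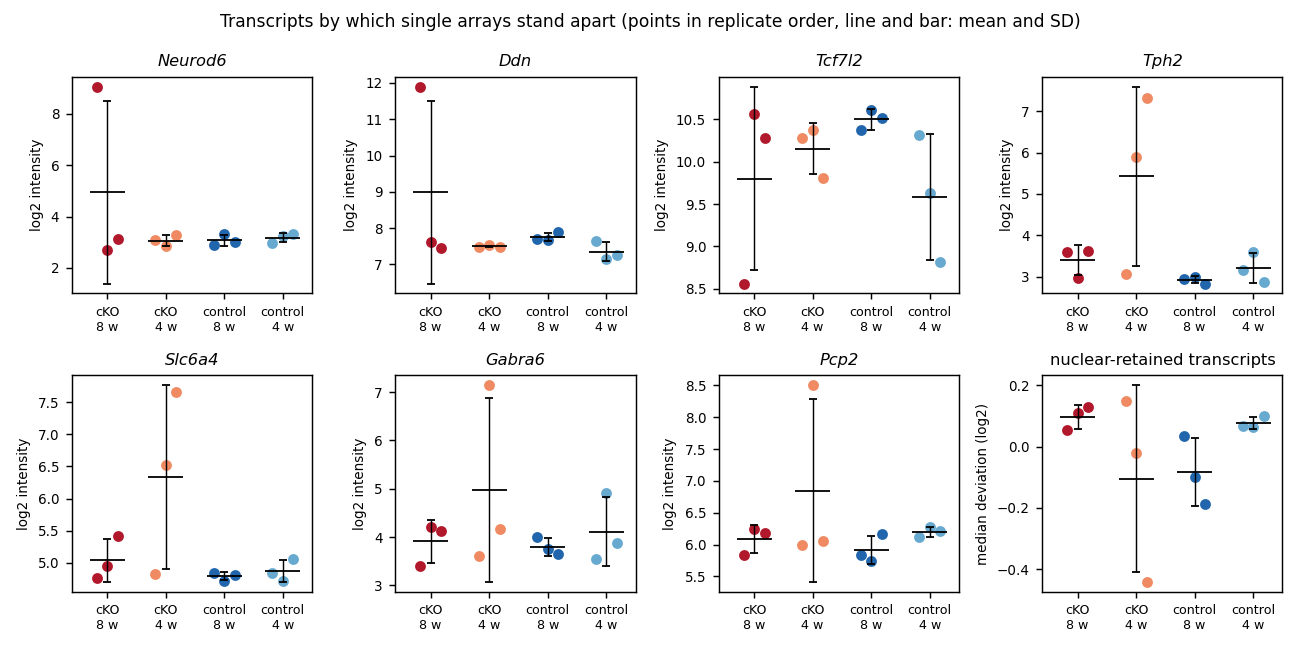
Log2 intensity of 7 genes and the median deviation of nuclear-retained transcripts in each array labelled hippocampus (points in replicate order, lines and bars the mean and SD of 3 arrays). Neurod6 and Ddn were high in replicate 1 of cKO mice at 8 weeks only, Tph2 and Slc6a4 in replicates 2 and 3 at 4 weeks, and Gabra6 and Pcp2 in replicate 2 at 4 weeks.

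Between 8 and 4 weeks no gene passed the threshold in cKO mice. Of 14200 genes, 0 (0%) were called by limma at a false discovery rate (FDR) of 15%, and the lowest adjusted p was 0.842. At an unadjusted p under 0.05 there were 797 genes (5.61%), 402 higher at 8 weeks (2.83%) and 395 lower (2.78%). The 3 arrays at 8 weeks lay wholly above the 3 at 4 weeks for 457 genes (3.22%) and wholly below for 714 (5.03%), together 1171 (8.25%), against 2300 (16.2%) for the same ages in controls, 1148 above (8.08%) and 1152 below (8.11%). The median change was −0.01, with 6393 genes (45%) above 0 and 7807 (55%) below, and the median standard error (SE) of a change was 0.116. The 95% interval of a change reached 0.253 to either side at the median gene. Changes over 1 in size were found for 20 genes, 19 of them higher at 8 weeks. The count of called genes was also 0 without replicate 1 at 8 weeks (680 at an unadjusted p under 0.05), without replicate 3 at 4 weeks (646) and without both (601). Without replicate 1 at 4 weeks it was 0 as well, but 1577 genes had an unadjusted p under 0.05, and the lowest adjusted p among the 20 genes named next was 0.266 in limma.

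**Figure D3:**
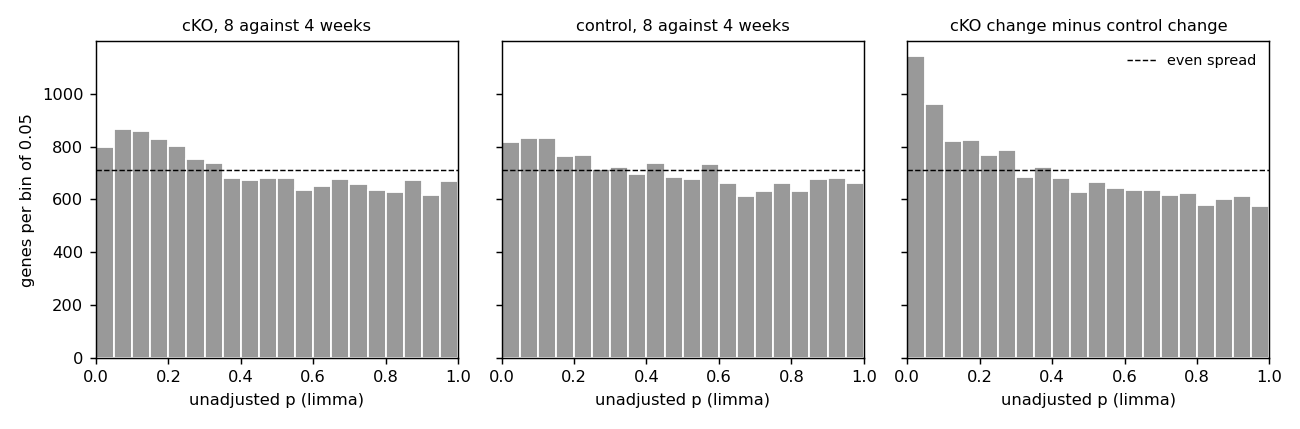
Number of genes in bins of 0.05 of the unadjusted limma p (x axis, 0 to 1) for the cKO comparison, the control comparison and their difference, over 14200 genes each. The dashed line is the even spread of 710 genes a bin, against which the lowest bin held 797, 817 and 1141 genes.

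The genes named next are the 10 of lowest p in each direction, and each had an adjusted p of 0.842 in limma with Benjamini-Hochberg adjustment. Probe sets of these genes are counted only where they passed the expression filter. Thbs3, a thrombospondin of the extracellular matrix, had the lowest p of all. Its values were 6.70, 6.46 and 6.56 at 8 weeks and 6.13, 6.00 and 6.15 at 4 weeks, a change of 0.48 ± 0.085 (SE, n = 3 each). The groups did not overlap, and the controls lay between them, at 6.32, 6.27 and 6.28 at 8 weeks and 6.42, 6.32 and 6.26 at 4 weeks. Without replicate 1 at 8 weeks and replicate 3 at 4 weeks the change was 0.45.

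Ttll3, a glycylase that modifies tubulin in motile cilia, was at 6.44, 6.60 and 6.37 at 8 weeks and at 5.96, 5.96 and 5.67 at 4 weeks, a change of 0.60 ± 0.123 (SE). In controls it ran the other way, at 5.75, 5.85 and 5.88 at 8 weeks and 6.31, 6.10 and 6.55 at 4 weeks. Neither pair of groups overlapped, and both probe sets of the gene were higher in cKO mice at 8 weeks, by 0.20 and 0.60.

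Grin2b, which encodes the NMDA receptor subunit GluN2B, was at 8.80, 8.02 and 7.63 at 8 weeks and at 7.02, 7.10 and 7.17 at 4 weeks. The change was 1.05 ± 0.221 (SE) and 0.72 without replicate 1 at 8 weeks, the highest array. Of its 4 probe sets, 2 were higher at 8 weeks, with changes between −0.13 and 1.05. The other higher probe set changed by 0.51, at 10.01, 8.87 and 8.78 at 8 weeks and at 8.77, 8.59 and 8.79 at 4 weeks. There the groups overlapped, and replicate 1 at 8 weeks alone was far above. In controls the probe set that entered the fit was at 7.67, 7.42 and 7.75 at 8 weeks and at 7.21, 7.09 and 7.25 at 4 weeks, without overlap and in the same direction.

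H1f2, a linker histone, was at 10.19, 10.47 and 10.61 at 8 weeks and at 9.81, 10.11 and 9.75 at 4 weeks, a change of 0.53 ± 0.121 (SE) without overlap, with 2 of its 3 probe sets higher. Ppara, a nuclear receptor that drives genes of fatty acid oxidation, was at 6.07, 6.04 and 5.90 at 8 weeks and at 5.56, 5.71 and 5.26 at 4 weeks. Its change was 0.50 ± 0.115 (SE), 0.34 without both arrays. Its 3 probe sets were all higher at 8 weeks, the others by 0.07 and 0.14. Control values of Ppara went down without overlap, from 6.09, 6.14 and 6.22 at 4 weeks to 6.05, 5.80 and 5.81 at 8 weeks. Irf3 is the transcription factor that switches on type I interferon genes after viral sensing. It was at 5.95, 5.74 and 6.10 at 8 weeks and at 5.15, 5.55 and 5.46 at 4 weeks. The difference rested on the probe set used, since the changes of the others were −0.13, 0.02 and 0.03. The controls ran the other way without overlap, at 5.70, 5.42 and 5.30 at 8 weeks and 5.87, 5.77 and 5.71 at 4 weeks. For Ppara and Irf3 alike, the lower 8-week controls were replicates 2 and 3, also the lowest control arrays for nuclear-retained transcripts. Whether the opposite direction comes from these arrays was not tested. The other 4 genes of this direction were Tbccd1, Marchf2, Mfsd4a and Zfp266, with changes between 0.43 and 0.76. For Tbccd1, Marchf2 and Zfp266 only the probe set used was higher, and the other probe sets lay below 0.

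Among genes lower at 8 weeks, Atad2, a chromatin-binding ATPase, was at 6.43, 6.41 and 6.44 at 8 weeks and at 6.72, 6.79 and 6.90 at 4 weeks, a change of −0.38 ± 0.079 (SE). Controls, at 6.62 to 6.76 at 8 weeks and 6.68 to 6.83 at 4 weeks, overlapped. Vat1l had the largest change of these 10, with 7.98, 8.41 and 8.51 at 8 weeks and 9.16, 8.95 and 8.62 at 4 weeks, a change of −0.61 ± 0.153 (SE), −0.60 without both arrays. Its lowest array was replicate 1 at 8 weeks, and the groups did not overlap. Twist1, a transcription factor of mesenchymal cells, was near the filter, at 4.40, 4.29 and 4.13 at 8 weeks and 5.01, 4.65 and 4.70 at 4 weeks.

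Lifr, the receptor of leukaemia inhibitory factor, was at 4.85, 4.84 and 4.84 at 8 weeks and at 5.07, 5.16 and 5.21 at 4 weeks. In controls it was at 5.20, 5.40 and 5.21 at 8 weeks and 4.95, 5.04 and 5.04 at 4 weeks, again in the other direction and without overlap. On its brighter probe set the cKO groups overlapped, at 9.01, 9.31 and 9.12 at 8 weeks and 9.33, 9.27 and 9.19 at 4 weeks. The change there was −0.12. Controls on that probe set were at 9.30, 9.30 and 9.25 at 8 weeks and 9.15, 9.20 and 8.97 at 4 weeks. The remaining genes were Rnf141, Endou, Cd164l2, Pigq, Fbxw10 and Etv6, with changes between −0.51 and −0.35. Rnf141, Endou and Fbxw10 were near the filter, at 4.05 to 4.71, 4.42 to 4.92 and 4.30 to 5.16 in cKO mice. On other probe sets the changes were −0.01 for Endou, −0.22 for Cd164l2, −0.16 and −0.09 for Rnf141, and −0.03 to 0.08 for Pigq. Fbxw10 and Etv6 had 1 probe set each that passed the filter.

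**Figure D4:**
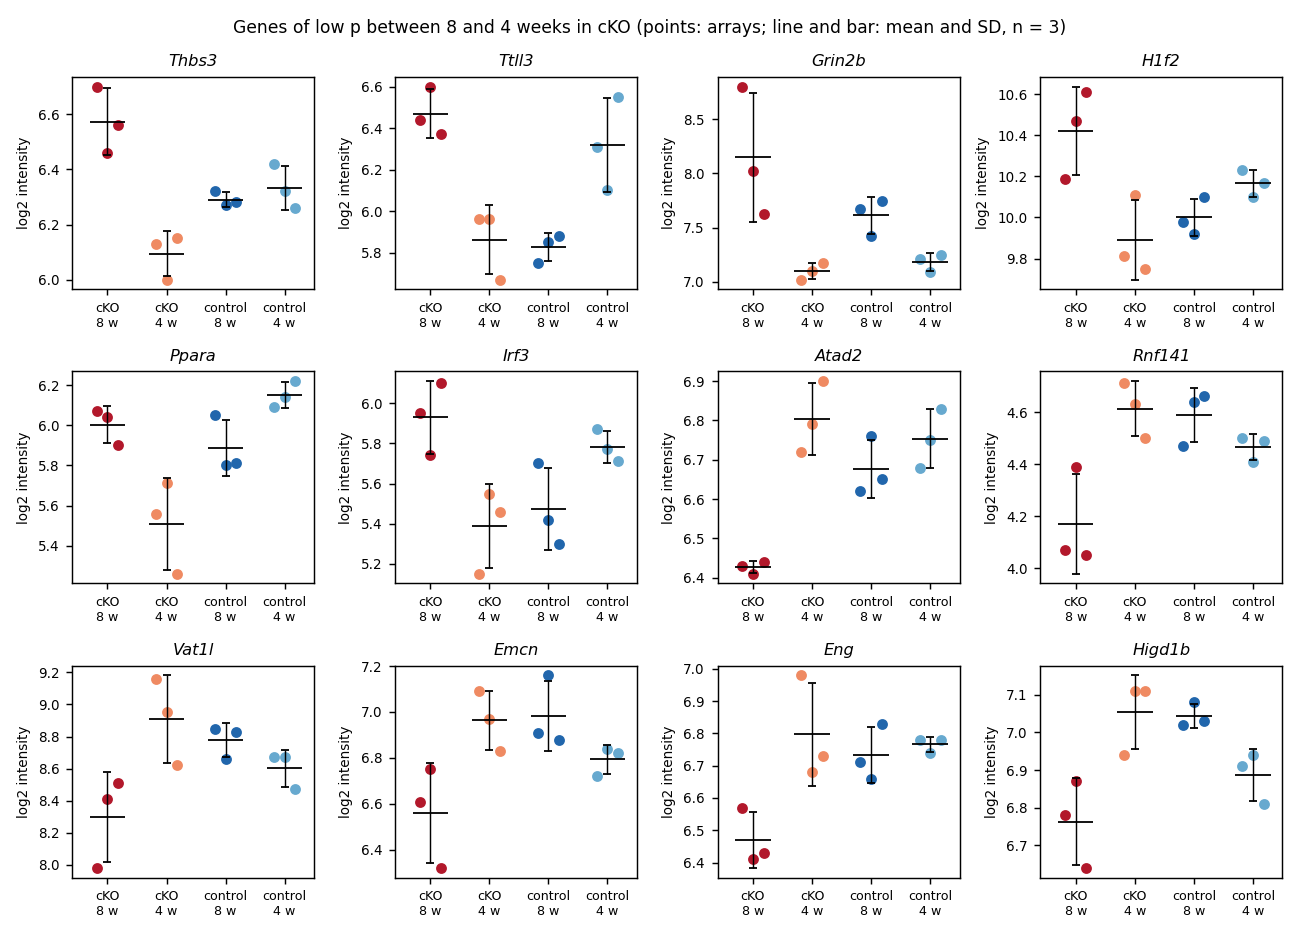
Log2 intensity of 12 genes of low unadjusted p between 8 and 4 weeks in cKO mice, in each of the 12 arrays labelled hippocampus (points; lines and bars the mean and SD, n = 3). The cKO groups did not overlap in any of the 12 panels, for example at 6.46 to 6.70 against 6.00 to 6.15 for Thbs3, and no gene passed an FDR of 15%.

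Dicer1 itself did not separate the times. On the probe set that entered the fit it was at 6.71, 6.56 and 6.53 at 8 weeks and at 6.68, 6.41 and 6.49 at 4 weeks, a change of 0.07 ± 0.102 (SE). On its other probe set it was at 8.52, 8.57 and 8.61 at 8 weeks and at 8.59, 8.44 and 8.57 at 4 weeks, a change of 0.03. Where these probes lie relative to the excised exon was not stated, so they do not check the deletion. Of 20 genes tested that make miRNAs or carry them to mRNAs, Dicer1 included, 10 were higher and 10 lower, with a median of 0.01 against −0.01 over all genes.

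Of these 20 genes, 2 had groups wholly apart with 8 weeks above and 1 with 8 weeks below, beside 3.22% and 5.03% of all genes. The members of lowest p were Tnrc6b, Ago2, Ago4 and Ago3. Tnrc6b, a scaffold that recruits the deadenylase to Argonaute, was at 8.16, 8.05 and 8.13 at 8 weeks and at 7.89, 7.86 and 7.13 at 4 weeks. Ago2, the Argonaute that can cut its target, was at 8.53, 8.83 and 8.62 at 8 weeks and at 8.60, 8.27 and 7.41 at 4 weeks. The groups of Ago2 overlapped. Replicate 3 at 4 weeks was the low array in both, and also in Ago3 (6.17) and Ago4 (5.58); it was the array with the lowest nuclear-retained transcripts. Without it the change of Ago2 was 0.22 rather than 0.56, and that of Tnrc6b 0.24 rather than 0.49. Dgcr8, which binds primary miRNAs beside Drosha, was at 7.92, 7.95 and 7.81 at 8 weeks and at 7.98, 8.00 and 8.20 at 4 weeks, lower and without overlap.

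The medians of reported targets of the miRNAs shown above, and of miR-124, lay close to 0. Over 20 let-7 targets tested the median change was 0.03, with 12 higher and 8 lower. Over 20 miR-124 targets it was −0.01, with 10 in each direction, and over 25 miR-29 targets 0.05, with 19 higher and 6 lower. Over 14 targets of miR-132 or miR-9 it was 0.12, with 10 higher, and the control medians for the 4 lists lay between −0.10 and 0.01. Without replicate 1 at 8 weeks and replicate 3 at 4 weeks the let-7 median was −0.02 with 7 higher and 13 lower, the miR-124 median 0.01 with 12 higher, the miR-29 median 0.05 with 14 higher and 11 lower, and the miR-132 and miR-9 median 0.09 with 9 higher. No member of these lists was called at an FDR of 15%. The groups lay wholly apart with 8 weeks above for 3 of 14 miR-132 and miR-9 targets and 3 of 25 miR-29 targets, and for 1 of 20 in each of the let-7 and miR-124 lists, beside 3.22% of all genes. In controls, 8 weeks lay wholly below for 6, 4, 0 and 5 genes of these lists in the same order, beside 8.11% of all genes. It lay wholly above for 0, 1, 2 and 0 genes, beside 8.08% of all genes.

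Rest, the repressor of neuronal genes and a reported target of miR-9, had the lowest p among these lists. It was at 6.48, 6.16 and 6.39 at 8 weeks and at 6.03, 5.84 and 5.84 at 4 weeks, a change of 0.44 ± 0.130 (SE), 0.34 without both arrays. In controls it was at 6.33, 6.09 and 5.81 at 8 weeks and at 6.35, 6.45 and 6.30 at 4 weeks, which overlapped. Foxp1, a forkhead transcription factor, was at 7.47, 7.09 and 6.90 at 8 weeks and at 6.60, 6.86 and 6.62 at 4 weeks, and Onecut2 at 5.39, 5.32 and 5.20 at 8 weeks and 5.16, 4.85 and 5.16 at 4 weeks. Both were highest in replicate 1 at 8 weeks, and without both arrays the changes were 0.26 for each. Among miR-29 targets, Dnmt3a, which sets new DNA methylation, was at 7.15, 7.23 and 7.23 at 8 weeks and at 7.15, 6.91 and 5.82 at 4 weeks, where replicate 3 again held the low value and its omission left 0.17 of a change of 0.58. Tet3, an enzyme that removes DNA methylation, was at 7.88, 7.87 and 7.64 at 8 weeks and at 7.60, 7.43 and 7.30 at 4 weeks, with 0.24 of 0.35 left without both arrays.

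Genes of forebrain excitatory neurons lay higher at 8 weeks as a list, and near 0 once replicate 1 at 8 weeks and replicate 3 at 4 weeks were left out. Over 12 pan-excitatory genes tested the median change was 0.38, with 10 higher, against −0.05 in controls, and it was 0.05 without both arrays. For 14 synaptic and dendritic genes of forebrain neurons, picked because many of them were high in replicate 1 at 8 weeks, the values are given only to describe that array. Their median deviation was 2.18 in replicate 1 at 8 weeks and −0.16 and −0.09 in replicates 2 and 3, and it was −0.15, −0.09 and −0.27 at 4 weeks. In bulk tissue, fewer cells of a type and less RNA per cell cannot be told apart.

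Camk2a, whose promoter drove the Cre, was at 7.23, 5.23 and 5.36 at 8 weeks and at 4.95, 4.99 and 4.18 at 4 weeks on the probe set that entered the fit. The groups did not overlap, but replicate 1 alone was far above, and the change of 1.23 ± 0.418 (SE) became 0.59 without it and 0.32 without both arrays. On the brightest of its 6 probe sets it was at 11.81, 10.43 and 10.51 at 8 weeks and at 10.42, 10.32 and 9.78 at 4 weeks. Nrgn, a calmodulin-binding protein of dendrites, was at 11.23, 10.91 and 10.76 at 8 weeks and at 10.55, 10.67 and 9.98 at 4 weeks, with 0.23 of 0.57 left without both. In controls Nrgn was also higher at 8 weeks, by 0.61.

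Over 29 genes of glutamate receptors and their partners the median change was 0.15 with 21 higher, and without both arrays 0.06 with 16 higher. Over 12 GABA receptor genes it was 0.26, and −0.01 without both. Syn2, which tethers synaptic vesicles, was at 9.22, 8.48 and 8.59 at 8 weeks and at 8.29, 8.27 and 7.90 at 4 weeks, without overlap, with 0.25 of 0.61 left without both. Gria1, the AMPA receptor subunit GluA1, was at 11.13, 10.21 and 10.18 at 8 weeks and at 10.19, 9.99 and 9.76 at 4 weeks, and 0.10 of 0.52 was left. Over 31 activity-induced immediate early genes the median was 0.09 with 24 higher, but −0.12 with 24 lower when both arrays were left out.

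Among genes of blood vessels, 15 of 20 endothelial genes tested were lower at 8 weeks and 5 higher, beside 55% lower among all genes, with a median of −0.09 against −0.01 over all genes and −0.01 in controls, and it was −0.04 with 12 of 20 lower without both arrays, near the share among all genes. None was called at an FDR of 15%, and 3 of 20 had groups wholly apart with 8 weeks below, beside 5.03% of all genes. Eng, a coreceptor of TGF-beta on endothelial cells, was at 6.57, 6.41 and 6.43 at 8 weeks and at 6.98, 6.68 and 6.73 at 4 weeks. Emcn, a sialomucin of the endothelial surface, was at 6.61, 6.75 and 6.32 at 8 weeks and at 7.09, 6.97 and 6.83 at 4 weeks. Slc2a1, the glucose transporter of the blood-brain barrier, was at 10.03, 10.30 and 10.20 at 8 weeks and at 10.53, 10.44 and 10.40 at 4 weeks. The changes were −0.33 ± 0.093, −0.40 ± 0.121 and −0.28 ± 0.102 (SE) in this order of genes, and −0.41, −0.50 and −0.23 without both arrays. In controls Eng was at 6.71, 6.66 and 6.83 at 8 weeks and at 6.78, 6.74 and 6.78 at 4 weeks, which overlapped. Higd1b, a marker of pericytes, was at 6.78, 6.87 and 6.64 at 8 weeks and at 6.94, 7.11 and 7.11 at 4 weeks, a change of −0.29 ± 0.084 (SE) that was −0.27 without both arrays. Of 12 genes of pericytes and smooth muscle 7 were lower, near the 55% of all genes, with a median of −0.05 against −0.19 in controls, and without both arrays 9 were lower with a median of −0.11.

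The median change was −0.01 over 21 astrocyte genes, 0.04 over 24 microglial genes and 0.04 over 18 genes of oligodendrocytes and myelin, and no member was called. In this order of lists 10, 19 and 10 genes were higher and 11, 5 and 8 lower, beside 45% higher among all genes. Without both arrays the medians were −0.03, 0.02 and 0.15 in this order of lists, the last with 13 genes higher and 5 lower. In controls the medians were −0.04, −0.12 and 0.08. The genes named next were all higher at 8 weeks, although other members of these lists were lower. Mal, a myelin proteolipid, was at 10.93, 11.06 and 10.74 at 8 weeks and at 10.45, 10.42 and 10.35 at 4 weeks, a change of 0.50 ± 0.153 (SE) that was 0.47 without both arrays. Slc1a2, the astrocyte glutamate transporter, was at 8.57, 8.25 and 8.03 at 8 weeks and at 8.03, 7.88 and 6.50 at 4 weeks, where replicate 3 was low, and its change of 0.81 was 0.18 without both. Gfap was at 8.94, 8.62 and 8.44 at 8 weeks and at 8.46, 8.45 and 7.85 at 4 weeks, and the groups overlapped. Over 32 genes of leptomeninges and fibroblasts the median was 0.10 with 25 higher, and −0.11 with 23 lower without both arrays.

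Among other pathways, 4 of 18 clock genes had groups wholly apart with 8 weeks below and 2 with 8 weeks above, beside 5.03% and 3.22% of all genes, and the list's median was −0.04. In controls 6 of the 18 were wholly apart with 8 weeks below and 1 with 8 weeks above, beside 8.11% and 8.08% of all genes, with a median of −0.10. Nr1d2, a repressor within the clock loop, was at 5.31, 5.40 and 5.57 at 8 weeks and at 5.61, 5.89 and 5.85 at 4 weeks. Per2 was at 6.82, 6.96 and 6.75 at 8 weeks and at 7.23, 6.97 and 7.13 at 4 weeks, where the nearest arrays differed by 0.01. Cry1 was at 7.22, 7.60 and 7.55 at 8 weeks and at 7.69, 7.68 and 7.69 at 4 weeks, a change of −0.23 that was −0.11 without both arrays. By the study's methods all mice were killed within a set window after lights came on.

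Over 25 genes of cholesterol synthesis and transport the median change was 0.01, over 29 genes of fatty acid synthesis and handling 0.00, and over 48 genes of oxidative phosphorylation −0.02, with 33 lower and 0 with groups apart in either direction, beside 8.25% of all genes. Without both arrays the last median was 0.01, with 29 higher and 19 lower. In controls the median of the oxidative phosphorylation genes was 0.08, and 15 of 48 had groups wholly apart with 8 weeks above, beside 8.08% of all genes. Lss, lanosterol synthase, was at 5.45, 5.71 and 5.59 at 8 weeks and at 5.14, 5.16 and 5.33 at 4 weeks, a change of 0.37 ± 0.105 (SE) that was 0.50 without both arrays. Scd3, a stearoyl-CoA desaturase, was at 5.11, 5.03 and 5.07 at 8 weeks and at 5.25, 5.27 and 5.69 at 4 weeks. Mt2, a metallothionein that glucocorticoids induce, was at 11.36, 11.34 and 11.42 at 8 weeks and at 11.03, 11.23 and 11.17 at 4 weeks. Adcyap1, the precursor of the neuropeptide PACAP, was at 4.98, 5.28 and 5.29 at 8 weeks and at 5.57, 5.39 and 5.83 at 4 weeks, and the control mice ran the other way by 0.42.

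**Figure D5:**
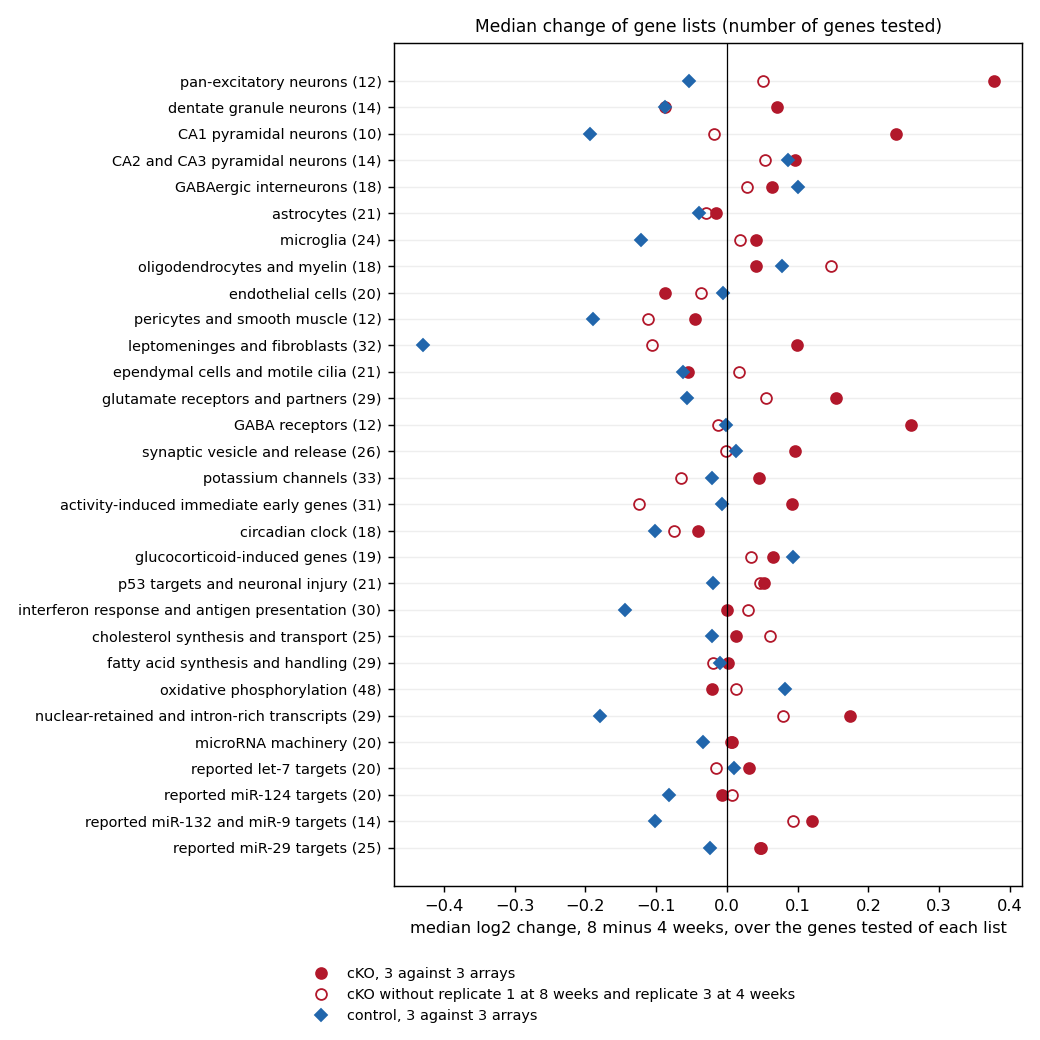
Median log2 change between 8 and 4 weeks (x axis) over the genes tested of 30 lists (rows, number tested in brackets) in cKO mice with all arrays (filled circles), in cKO mice without replicate 1 at 8 weeks and replicate 3 at 4 weeks (open circles) and in controls (diamonds). The median of pan-excitatory genes was 0.38 with all arrays and 0.05 without the 2 arrays, while that of endothelial genes was −0.09 and −0.04.

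In control mice 0 of 14200 genes (0%) were called between 8 and 4 weeks, with 817 (5.75%) at an unadjusted p under 0.05, 374 higher (2.63%) and 443 lower (3.12%), and a lowest adjusted p of 0.835, that of Pcdh18 (limma). Changes were above 0 for 50.9% of genes and below 0 for 49.1%. Pcdh18, a protocadherin, was at 4.73, 4.92 and 4.72 in cKO mice at 8 weeks and at 5.20, 4.85 and 5.11 at 4 weeks, and in controls at 4.58, 4.69 and 4.56 at 8 weeks and 5.10, 5.35 and 5.18 at 4 weeks. The 4 genes next in order of p in controls were Tmem215, Raly, Atat1 and Alg13, and the cKO groups overlapped in all 4.

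The change in cKO mice minus that in controls was tested directly, and 0 genes (0%) were called, with 1141 (8.04%) at an unadjusted p under 0.05, 696 positive (4.9%) and 445 negative (3.13%). Over all genes 45.3% of differences were above 0 and 54.7% below. The lowest adjusted p was 0.559, for Ttll3, whose difference was 1.10 ± 0.174 (SE). Next came Zfp266 with a difference of 0.83, Medag with −0.62, Lifr with −0.56 and Krt222 with −0.60, all at an adjusted p of 0.594 in limma. In each of these 5 genes, on the probe set used, neither the cKO nor the control groups overlapped and the 2 changes had opposite signs. Selection by the lowest p of this difference favours that pattern, so it is not separate support. The count depended on 1 array: without replicate 1 of cKO mice at 4 weeks, 212 genes were called, 194 with a positive and 18 with a negative difference, and leaving out any other array gave 0. In Tnrc6b, Ago2 and Dnmt3a the 3 lowest of the 12 values lay in replicate 3 of cKO mice at 4 weeks and in replicates 2 and 3 of controls at 8 weeks.

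The change in the arrays labelled hippocampus was also set against the same change in other tissues, from different mice. Against cortex 0 of 12585 genes (0%) differed at an FDR of 15% (1395, or 11.1%, at an unadjusted p under 0.05), although in cortex itself 2210 (17.6%) were called between 8 and 4 weeks in cKO mice. H1f2 had the lowest p, with a change of 0.53 in the arrays labelled hippocampus and −0.30 in cortex (adjusted p of the difference 0.349 in limma). The change of Grin2b was 1.05 in the arrays labelled hippocampus and 1.00 in cortex, with a difference of 0.05 ± 0.504 (SE), too wide to show that they were alike. Against hypothalamus 0 of 14118 genes (0%) differed (1088, or 7.71%), while 189 (1.34%) were called in hypothalamus itself. Tspo, the mitochondrial translocator protein, had the lowest p, with a change of −0.09 in the arrays labelled hippocampus and 1.25 in hypothalamus (adjusted p 0.169 in limma). Mal followed, with 0.50 and −0.47 in the same order of tissues (adjusted p 0.222 in limma), and its adjusted p was 0.149 without replicate 3 at 8 weeks and 0.114 without replicate 1 at 4 weeks of the cKO arrays labelled hippocampus.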

How the data were processed

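Total RNA was hybridised to Affymetrix mouse expression arrays. The deposited values are log2 intensities that the authors made by RMA in Expression Console, with each tissue normalized on its own; no software version was stated. They were used unchanged. Of 45101 probe sets, 34945 carry 1 gene name, 932 several and 9160 none, besides 64 controls. Detection calls were not used here; probe sets with 1 gene name were kept where the third-highest of the 12 values was at least 4.6, and the most variable probe set stood for its gene, which left 14200 genes. Arrays carry no counts, so their number limits the precision.

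Groups were taken from sample titles. The 4 groups of 3 arrays were fitted together with limma 3.58.1 in R 4.3.3, and p-values were adjusted by Benjamini-Hochberg over all genes tested and called at an FDR of 15%. Differences between tissues were fitted over 24 arrays. Simulated data of known fold changes were used to check the code.

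The genes named are the 10 of lowest p in each direction (no gene was called), within each list up to 4 genes by p, the 5 of lowest p for the difference from controls and the 5 of lowest p in controls, and Dicer1 and Camk2a on all probe sets; Dgcr8 and the genes used to describe single arrays were chosen after their values were seen. The compared groups and the lists were chosen with earlier results of these data known. Of 49 lists, 4 (dorsal midbrain, raphe, cerebellum, synaptic genes of forebrain neurons) were added after the values had been seen. No list was tested as a set. Replicates of the same number did not deviate together (correlations between −0.139 and 0.0324), so they were not treated as pairs. Alternatives were other filters, probe set choices, scalings, variance models and array weights, as well as the methods' t-test, an FDR of 5%, a replicate block and the omission of each array; the joint omission of replicate 1 at 8 weeks with replicate 3 at 4 weeks in cKO mice was chosen after seeing the data.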

Additional observations from a re-analysis of the deposited data

How the results depend on the processing

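The count of genes called between 8 and 4 weeks in cKO mice was 0 under all 25 alternatives, with 448 (the methods' t-test) to 1577 (without cKO replicate 1 at 4 weeks) genes at an unadjusted p under 0.05. In controls it was 1 with only the 6 arrays compared (Clec2d, change 0.91) and 0 to 2 when each array was left out in turn, the 2 being Ankrd63 and Grp without control replicate 1 at 4 weeks. The difference between cKO and control changes gave 0 to 212 genes when each array was left out, and 212 only without cKO replicate 1 at 4 weeks. Against cortex the range was 0 to 1 gene, with 1 without replicate 2 or replicate 3 at 4 weeks and without replicate 1 or replicate 2 at 8 weeks of the cKO arrays labelled hippocampus (H1f2, Pgap3, H1f2 and Dpp6 in this order). Against hypothalamus it was 0 to 24, with 24 without cKO replicate 1 at 4 weeks, 2 without cKO replicate 1 at 8 weeks and 10 without cKO replicate 3 at 8 weeks. The causes were not tested. Of the 20 genes of lowest p in cKO mice, none passed the threshold under any alternative, and directions turned for Atad2 without the filter (0.10), for Tbccd1 with a filter of 6 (−0.0039) and with the probe set of the highest mean (−0.0039), and for Marchf2 (−0.13) and Zfp266 (−0.0035) with that probe set. The stricter filter held 17 of the 20.

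With the replicate number as a block, 0 genes were called in cKO mice (860 at an unadjusted p under 0.05), in controls (803) and for the difference (1174), and no call changed; correlations of deviations between arrays of the same number at 8 and 4 weeks were −0.062, 0.0324 and −0.101 in cKO mice. The methods' t-test and the fit of only the compared arrays were not run for the difference. With 3 arrays a group, the 95% interval at the median gene, unadjusted for the number of genes, reached 0.253 to either side. Smaller changes could not be told from 0 there. It is not a limit of detection at the FDR used, since larger changes, such as 1.05 for Grin2b, were not called either.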

Other observations

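Among controls, 2 arrays stood apart by genes of microglia and of the interferon response. The median deviation of 30 interferon and antigen presentation genes was 0.54 in replicate 3 at 8 weeks and 0.78 in replicate 2 at 4 weeks, against −0.175 to −0.031 in the other 4 control arrays and −0.319 to −0.00587 in the 6 cKO arrays. For 24 microglial genes the same 2 control arrays were at 0.34 and 0.64. C1qa, a complement gene of microglia, was at 9.99 and 10.48 in them, against 9.15 to 9.37 in the other 4 control arrays. These arrays enter the test of the difference between cKO and control changes.

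Genes of leptomeninges and fibroblasts (32 tested) deviated most, by −0.633, in replicate 3 of cKO mice at 4 weeks. In controls they deviated by 0.589 and 0.461 in replicates 1 and 3 at 4 weeks, and the median control change was −0.43.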
